A study of Mus musculus with 6 samples.

Results

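Heme oxygenase 1 and 9 genes of the NRF2-BACH1 antioxidant system were followed in mouse fetal liver erythroblasts, red cell precursors that still have a nucleus, grown in culture. The 10 genes were found by symbol in both deposited tables, which list 17691 genes, and all 10 passed the filter on low counts that left 12283 genes for testing. Hmox1 was chosen by its measured values: in these same libraries it had a small unadjusted p for treatment and groups that did not overlap. Its values in that comparison are therefore given as a description, with no test. The other 9 genes were added for their role in the pathway. They are Nfe2l2, which encodes the transcription factor NRF2, the repressor gene Bach1, the NRF2 inhibitor gene Keap1 and the NRF2 target genes Nqo1, Gclc, Gclm, Txnrd1, Srxn1 and Slc7a11.

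The treated group consists of 3 libraries of TER119-negative erythroblasts from C57BL/6J fetal liver, kept for 30 h in erythropoietin medium with carbon dots (CDs) at 1 ug/ml. Carbon dots are nanometre-sized carbon particles, obtained here from the plant Codonopsis pilosula. The untreated group consists of 3 libraries of the same kind of cells in the same medium without CDs. Both groups were depleted of cells with TER119, an antigen found on the surface of more mature erythroid cells. The labels do not say whether the libraries of a group came from separate cultures or litters, so the spread between them may be technical in part.

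NRF2 is held in the cytoplasm by KEAP1, which directs it to degradation through a cullin 3 ubiquitin ligase. Oxidants and electrophiles modify KEAP1, and NRF2 then enters the nucleus, pairs with a small MAF protein and binds antioxidant response elements. BACH1 occupies the same elements as a repressor and leaves them when it binds heme, which ties the transcription of Hmox1 to heme as well as to oxidants. Heme oxygenase 1 opens the heme ring and releases iron, carbon monoxide and biliverdin, a reaction of particular interest in erythroblasts, which make heme for hemoglobin. The other targets serve quinone reduction (Nqo1), glutathione synthesis (Gclc, Gclm and the cystine carrier gene Slc7a11), thioredoxin reduction (Txnrd1) and the repair of overoxidised peroxiredoxins (Srxn1).

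The response elements are the part of these genes that NRF2 and BACH1 read, so matches near the start sites are shown. Promoter windows of 250 bases before and 50 bases after a start site were matched by gene ID for 8 of the 10 genes, all but Hmox1 and Gclc (RefSeq, build GRCm38.p6, 10 windows because Txnrd1 has 3). The core TGACNNNGC, searched on both strands, was found in the windows of 4 genes, namely Nfe2l2, Gclm, Txnrd1 and Srxn1, and in 12.4% of all 32851 windows. The match of Srxn1 to this core began 28 bases after the start site and is not printed. The longer MAF recognition form GCTGANTCA was found in the window of Srxn1 alone among these 8 genes and in 1.19% of all windows. A stretch of letters can match both patterns, but in none of these windows did the matches overlap. The stretches below are written on the strand of the gene, 5′ to 3′, with the matched letters in capitals.
Srxn1 (chr2:152105459-152105507, plus strand, MAF recognition form on the opposite strand, beginning 45 bases before the start): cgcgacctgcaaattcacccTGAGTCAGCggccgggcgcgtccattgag
Gclm (chr3:122245403-122245451, plus strand, core on the opposite strand, 134 bases before the start): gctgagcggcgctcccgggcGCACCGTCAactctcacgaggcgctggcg
Txnrd1 (chr10:82859094-82859142, plus strand, core on the opposite strand, 92 bases before the start): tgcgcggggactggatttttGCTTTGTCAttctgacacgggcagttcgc
Nfe2l2 (chr2:75704875-75704913, minus strand, core on the strand of the gene, 240 bases before the start): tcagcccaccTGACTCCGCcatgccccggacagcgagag
A match is only a description of these letters. The windows do not reach distal enhancers, and no binding was measured here.

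Libraries held 17695997 to 19992001 expected counts with CDs and 19896958 to 20066581 without. They differed mostly by their number rather than by treatment. The 18 macrophage markers examined summed to 425, 1752 and 6009 CPM in CDs libraries 1 to 3, against 181, 528 and 4644 CPM in untreated libraries 1 to 3, where CPM is the count divided by the TMM-scaled library size. Erythroblast markers were high in both groups, and the 11 in the table summed to 111854 to 138879 CPM with CDs and 119629 to 134095 CPM without. Libraries with the same number deviated together from their group means, so values are also given by numbered pair.

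Hmox1 had the largest difference of the 10 genes. With CDs it lay at about the same level in all 3 libraries and at 3.16 times the untreated level in the fit of all libraries, whereas the 6 other target genes had fitted ratios between 0.895 and 1.16. The regulators Nfe2l2 and Keap1 had ratios of 1.08 and 0.996, and Bach1 had 1.30. In edgeR's quasi-likelihood test 0 of the 9 genes other than Hmox1 had an adjusted p under 0.05, as did 0% of the 12283 genes tested, of which 127 had an unadjusted p under 0.05. Limma-voom called 0 genes as well, and DESeq2 called 14.

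Hmox1 (Entrez 15368, chromosome 8, 75093618 to 75100593, plus strand) had 281, 310 and 308 expected counts in CDs libraries 1 to 3, against 78, 70 and 145 in untreated libraries 1 to 3. Scaled for depth this was 16.1, 15.6 and 14.9 CPM with CDs, against 4.03, 3.58 and 7.08 CPM without. The CDs libraries lay close together and all above the untreated ones, of which untreated 3 was highest. The means were 15.5 ± 0.619 CPM with CDs and 4.90 ± 1.91 CPM untreated (SD, n = 3 each). The edgeR log2 fold change was 1.66 ± 0.31 (SE). Within the numbered pairs the CDs library was 3.95, 4.31 and 2.09 times as high as its untreated partner. Pair 3 gave the smallest ratio, and the difference lay in its untreated library and not in the treated one. Without untreated 3 the log2 fold change was 2.02 ± 0.20, and without any other single library it lay between 1.48 and 1.69.

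**Figure D1:**
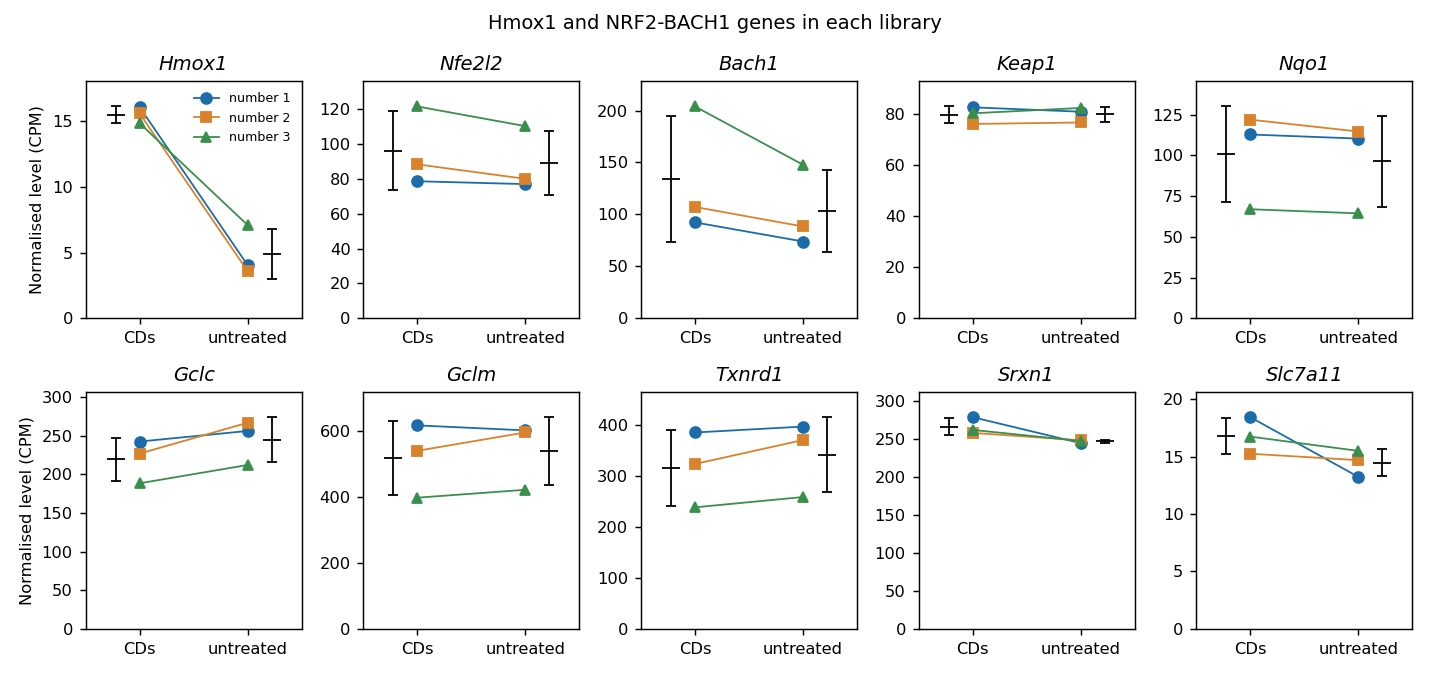
Each panel plots the normalised level of one gene in CPM (axis from 0) for CDs and untreated libraries, with lines joining libraries of the same number and black bars for the mean and SD of 3 libraries. Hmox1 lies at 14.9 to 16.1 CPM with CDs and at 3.58 to 7.08 CPM untreated, while the 2 groups overlap for the other 9 genes except Srxn1, and the library numbered 3 is highest for Nfe2l2 and Bach1 and lowest for Nqo1, Gclc, Gclm and Txnrd1 in both groups.

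In absolute terms Hmox1 stayed a minor transcript of these cells. Levels of different genes are compared here per length, as FPKM from the authors' deposited normalised table. Hmox1 measured 8.99, 8.77 and 8.77 FPKM with CDs, against 2.21, 1.99 and 4.09 FPKM untreated. Over all 6 libraries Gclm, the modifier subunit of glutamate-cysteine ligase, was highest of the 10 genes, at a mean of 253 FPKM. It was followed by Txnrd1 (95.5), Srxn1 (90.1), Gclc (68.8), Nqo1 (63.1), Nfe2l2 (36.9), Keap1 (22.6), Bach1 (20.1), Hmox1 (5.80) and Slc7a11 (1.67 FPKM). The ranges over libraries of Txnrd1 and Srxn1 overlapped, as did those of Gclc and Nqo1, of Nqo1 and Nfe2l2 and of Keap1 and Bach1, so these neighbours were not separated. Hmox1 therefore ranked ninth of 10 even though its CDs libraries were all above its untreated ones.

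Nfe2l2 and Keap1, which set the activity of the pathway mainly through protein stability, differed little between groups. Nfe2l2 (chromosome 2, 75675513 to 75704663) measured 78.7, 88.4 and 122 CPM with CDs, against 77.0, 80.1 and 110 CPM untreated. The 2 libraries numbered 3 were high in both groups and the ranges overlapped. Its log2 fold change was 0.11 ± 0.23 (edgeR adjusted p = 0.994), or 0.11 ± 0.06 with the replicate number as a block (edgeR adjusted p = 0.283). Keap1 (chromosome 9, 21229730 to 21239332) measured 82.6, 76.1 and 80.2 CPM with CDs, against 80.9, 76.6 and 82.3 CPM untreated. It was the most even of the 10 genes in this comparison, at a log2 fold change of -0.0057 ± 0.099 (edgeR adjusted p = 0.997), and its 95% interval with the block ran from a ratio of 0.903 to 1.10.

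Bach1, the heme-sensing repressor of Hmox1, was higher in the CDs library of each pair. It measured 92.3, 107 and 204 CPM with CDs, against 73.9, 88.4 and 148 CPM untreated (Entrez 12013, chromosome 16, 87698954 to 87733346). Libraries numbered 3 were highest in both groups, and the groups overlapped. The log2 fold change was 0.38 ± 0.41 (edgeR adjusted p = 0.994). With the block it was 0.36 ± 0.06 (edgeR adjusted p = 0.0916), and DESeq2 with the block called it (log2 fold change of 0.34 ± 0.11, DESeq2 adjusted p = 0.0260). Over all alternatives its adjusted p ran from 0.0260 to 1. Leaving out CDs 3 gave -0.05 and leaving out untreated 3 gave 0.73. The level of Bach1 followed the summed macrophage markers in the same libraries, and with the mean log2 CPM of the markers as a covariate the log2 fold change was 0.05 ± 0.13. The summed markers were themselves higher with CDs in each numbered pair, so the covariate cannot separate marker level from treatment. In RNA from a mixture of cells, a change in the number of cells of a type and a change in RNA per cell cannot be told apart. The part of macrophage RNA in the Bach1 values was not tested.

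**Figure D2:**
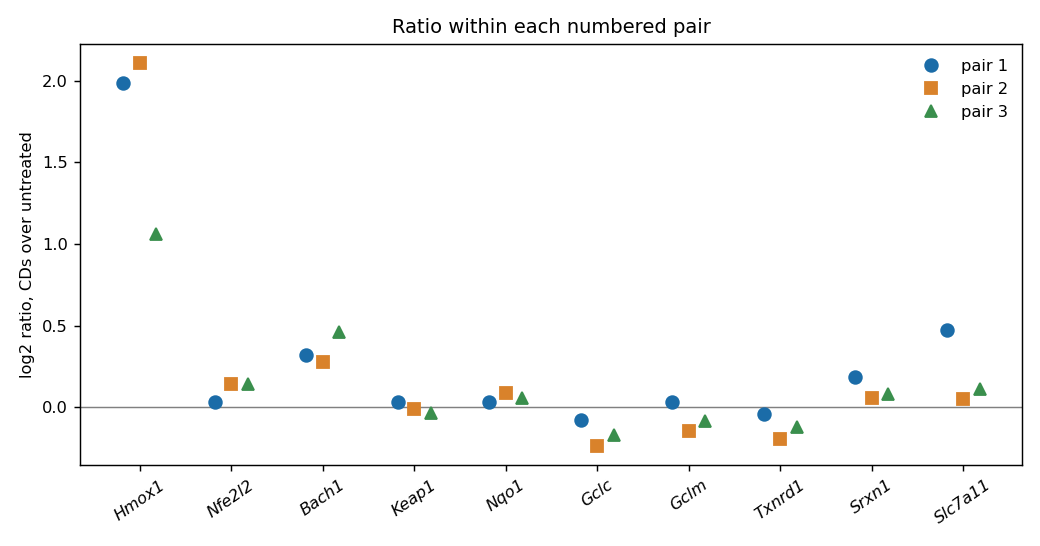
Points give the log2 ratio of the CDs library over the untreated library of the same number for each of the 10 genes, with pairs 1, 2 and 3 as circles, squares and triangles and a line at 0. Hmox1 lies between 1.06 and 2.11 in all 3 pairs, and the 6 other target genes lie between -0.23 and 0.48.

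The target genes of glutathione synthesis lay on either side of 0. Gclc, the catalytic subunit of glutamate-cysteine ligase, measured 243, 227 and 188 CPM with CDs, against 256, 267 and 212 CPM untreated. It was lower with CDs in 3 of 3 pairs, and its log2 fold change was -0.16 ± 0.16 without the block (edgeR adjusted p = 0.994) and -0.16 ± 0.06 with it (edgeR adjusted p = 0.149). Gclm, its partner subunit, measured 617, 540 and 398 CPM with CDs, against 602, 596 and 422 CPM untreated. The ranges nearly coincided, with a log2 fold change of -0.06 ± 0.24 (edgeR adjusted p = 0.994) and a higher CDs library in 1 of 3 pairs. Slc7a11, the cystine-glutamate exchanger, measured 18.4, 15.2 and 16.7 CPM with CDs, against 13.2, 14.7 and 15.5 CPM untreated. It was higher with CDs in 3 of 3 pairs, by most in pair 1 (1.39 times), with a log2 fold change of 0.22 ± 0.15 (edgeR adjusted p = 0.994, and edgeR adjusted p = 0.276 with the block).

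The thioredoxin-linked and quinone-reducing targets also showed small differences. Txnrd1, thioredoxin reductase 1, measured 385, 324 and 239 CPM with CDs, against 397, 371 and 259 CPM untreated, and was lower in 3 of 3 pairs (-0.12 ± 0.25, edgeR adjusted p = 0.994). Srxn1, sulfiredoxin, measured 279, 258 and 262 CPM with CDs, against 244, 248 and 247 CPM untreated. Its groups did not overlap, but the difference was a ratio of 1.08 (log2 fold change of 0.11 ± 0.10, edgeR adjusted p = 0.994, and edgeR adjusted p = 0.275 with the block). Nqo1, NAD(P)H quinone dehydrogenase 1, measured 113, 122 and 66.9 CPM with CDs, against 110, 115 and 64.4 CPM untreated. Both libraries numbered 3 were low, and the log2 fold change was 0.06 ± 0.33 (edgeR adjusted p = 0.994). With the macrophage markers as a covariate, Nqo1 stood at 0.31 ± 0.16.

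The intervals of the 6 targets bound the differences that these libraries leave possible. With the block, their 95% intervals, each unadjusted, reached up to a ratio of 1.42 (Slc7a11) and down to 0.805 (Gclc). The smallest ratio of Hmox1 in a numbered pair, 2.09, is a single ratio from the values by which it was chosen. The bounds of the targets were therefore not tested against it. Without the block the widest intervals ran from 0.592 to 1.84, both for Nqo1. Because Hmox1 was chosen for its difference, the contrast between it and the targets is a description.

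Counts over the 9 genes other than Hmox1 are set beside the share of all genes tested. Groups did not overlap, with CDs higher, for 1 of the 9, Srxn1, against 2.37% of all genes tested, and with CDs lower for 0 of 9, against 2.33%. The CDs library was higher in 3 of 3 pairs for 5 of the 9 (Nfe2l2, Bach1, Nqo1, Srxn1 and Slc7a11), against 30.2% of all genes, and lower in 3 of 3 for 2 (Gclc and Txnrd1), against 26.2%. A log2 fold change above 1 was seen for 0 of the 9, against 1.42% of all genes. With the block, edgeR gave an adjusted p under 0.05 to 0 of the 9, against 0.0407% of all genes (0.0244% higher with CDs). The number under 0.10 was 1, Bach1, against 8.3% of all genes (5.17% higher). DESeq2 called 0 of the 9, against 0.114% of all genes (0.0733% higher), and 1 with the block, Bach1, against 9.85% (7.76% higher). Limma-voom with the block called 0 of the 9, against 0.0488% (0.0244% higher).

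Across libraries several of the genes varied by library number more than by treatment. Bach1 in the library numbered 3 was 2.05 times the mean of numbers 1 and 2 with CDs and 1.82 times untreated, and Nfe2l2 was 1.46 times that mean with CDs and 1.4 times untreated. Nqo1 stood at 0.570 with CDs and 0.573 untreated, Txnrd1 at 0.673 and 0.674, Gclm at 0.688 and 0.704, and Gclc at 0.803 and 0.811. Thus 2 regulators were high and 4 enzymes low in the libraries numbered 3, by nearly the same factor in either group. Keap1 (1.01 with CDs and 1.05 untreated), Srxn1 (0.976 and 1.00) and Slc7a11 (0.994 and 1.11) were nearly level. Hmox1 was level with CDs (0.938) and 1.86 times as high in untreated 3 as in untreated 1 and 2.

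Macrophages break down heme and are known to express Hmox1, so its level was set beside their markers. Of the 16 macrophage markers tested, 15 were higher with CDs in 3 of 3 pairs, against 30.2% of all genes, and none was at 0 counts in all libraries. The defining markers Adgre1 and Csf1r measured 32.7, 130 and 488 CPM and 82.5, 291 and 784 CPM in CDs libraries 1 to 3, against 9.61, 30.9 and 336 CPM and 28.0, 74.3 and 571 CPM in untreated libraries 1 to 3. The markers were higher in CDs 3 than in CDs 1, while Hmox1 measured 14.9 CPM in CDs 3 and 16.1 CPM in CDs 1. With the same covariate its log2 fold change was 1.57 ± 0.20, and without both libraries numbered 3 it was 2.03 ± 0.18. Among the untreated libraries Hmox1 was highest where the markers were highest, in untreated 3. These values rest on the libraries in which Hmox1 was chosen, and the part of macrophage RNA in its level and in its difference between groups was not tested.

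**Figure D3:**
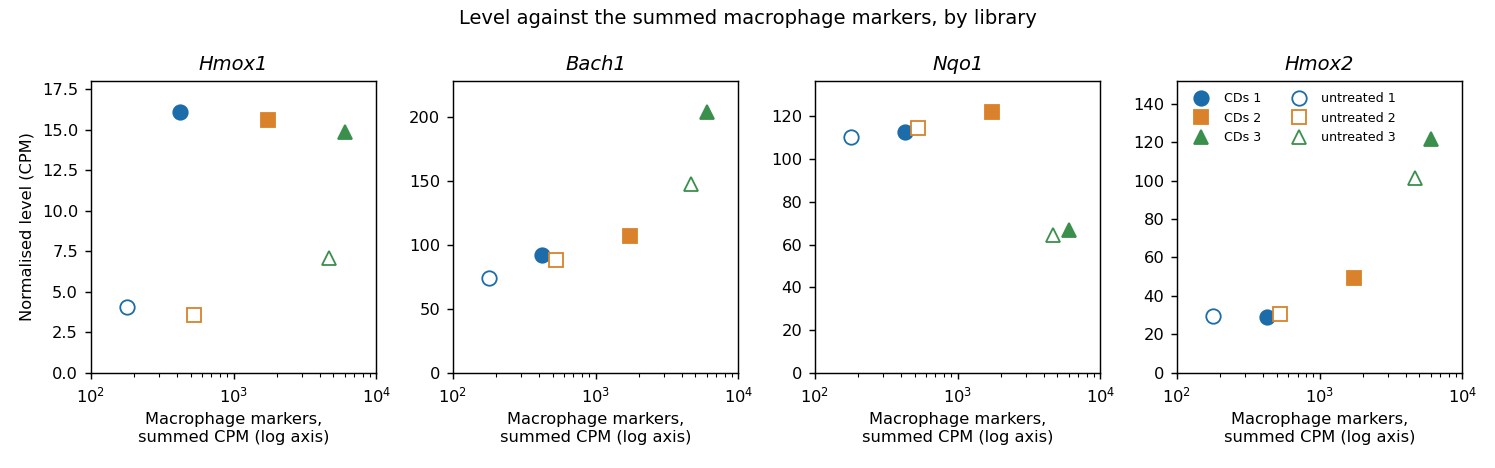
Each panel plots the CPM of one gene (axis from 0) against the summed CPM of 18 macrophage markers (log axis), with filled symbols for CDs and open symbols for untreated libraries, by number. Bach1 and Hmox2 are highest and Nqo1 lowest in the libraries numbered 3 of both groups. Hmox1 is at 16.1, 15.6 and 14.9 CPM in CDs libraries 1 to 3, where the markers sum to 425, 1752 and 6009 CPM. Among untreated libraries it is highest, at 7.08 CPM, in untreated 3, where the markers are highest.

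Further cell types were followed through their own marker lists. Neutrophil markers summed to 380, 1274 and 2131 CPM with CDs, against 269, 841 and 2066 CPM untreated, and hepatocyte markers to 354, 358 and 694 CPM, against 293, 229 and 519 CPM. Endothelial markers summed to 29.5, 43.6 and 87.6 CPM with CDs, against 26.6, 30.6 and 74.3 CPM untreated, and mast cell and basophil markers to 61.2, 134 and 207 CPM, against 43.9, 101 and 309 CPM. Megakaryocyte markers ran differently, at 136, 139 and 93.0 CPM with CDs, against 102, 106 and 99.5 CPM untreated. In each of these 5 lists the sums of the 2 groups overlapped, and their part in its values was not tested.

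For the rest of heme breakdown, transport and iron release the differences were smaller. Hmox2, the constitutive heme oxygenase, measured 28.7, 49.3 and 121 CPM with CDs, against 29.3, 30.6 and 101 CPM untreated, and so followed the library number. Per length, the Hmox1 level was 40.4%, 23.2% and 8.95% of the Hmox2 level in CDs libraries 1 to 3, against 10.005%, 8.51% and 5.11% in untreated libraries 1 to 3, higher with CDs in each pair. Blvrb, biliverdin reductase B, had a log2 fold change of -0.23 ± 0.19 and was lower with CDs in 3 of 3 pairs. With the block its log2 fold change was -0.24 ± 0.07 (edgeR adjusted p = 0.111). Without the block the ferritin genes Fth1 (-0.04 ± 0.15) and Ftl1 (-0.02 ± 0.14) had differences below their standard errors. So did the heme carrier genes Slc48a1 (-0.01 ± 0.18) and Abcg2 (-0.07 ± 0.25) and the iron exporter gene Slc40a1 (0.11 ± 0.26). With the block Abcg2 was above its standard error (-0.08 ± 0.06, edgeR adjusted p = 0.431), and the others named were below theirs. Of 13 tested genes for heme breakdown, heme transport and iron release, 7 were above 0 and 6 below, at a median log2 fold change of 0.02 against 0.01 for all genes tested, and 0 passed with or without the block. Ncoa4, the ferritin autophagy receptor gene, and Por, cytochrome P450 reductase, which supplies electrons to heme oxygenase, were the 2 under an adjusted p of 0.10 with the block (edgeR adjusted p = 0.0957 and 0.0939), both higher, against 5.17% of all genes. They are named after their values were seen. Ncoa4 measured 310, 297 and 339 CPM with CDs, against 266, 256 and 276 CPM untreated, and its groups did not overlap. Those of Blvra, biliverdin reductase A, did not overlap either, with 49.3, 49.9 and 50.2 CPM with CDs, against 57.1, 52.9 and 50.4 CPM untreated, and these were the only 2 of the 13, 1 higher (2.37% of all genes) and 1 lower (2.33%).

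A wider list of NRF2 targets lay close to the other genes of the table. Of 28 genes, 24 were tested, 13 lay above 0 and 11 below, and 0 passed, with a median log2 fold change of 0.04 against 0.01 for all genes. Enzymes of the pentose phosphate pathway, which supplies NADPH, gave 0.05 ± 0.11 for G6pdx, 0.02 ± 0.11 for Taldo1 and 0.09 ± 0.30 for Tkt. Glutathione reductase, Gsr, gave 0.06 ± 0.10. It was the only one of the 24 whose groups did not overlap, with CDs higher, against 2.37% of all genes tested. Thioredoxin, Txn1, gave -0.17 ± 0.15. With the block Gsr gave 0.07 ± 0.06 and Txn1 gave -0.16 ± 0.06 (edgeR adjusted p = 0.48 and 0.166). Chosen after their values were seen, Me1, malic enzyme (0.65 ± 0.11, edgeR adjusted p = 0.0916 with the block), the pentose phosphate enzyme gene Pgd (0.30 ± 0.07, edgeR adjusted p = 0.0984) and Ugdh (0.55 ± 0.14, edgeR adjusted p = 0.0996) were the 3 of 24 under 0.10 with the block, all higher, against 5.17% of all genes. These 3 differed in their order across libraries. Me1 measured 19.2, 11.7 and 6.99 CPM with CDs, against 11.9, 7.83 and 4.35 CPM untreated, and was lowest in the libraries numbered 3. Ugdh measured 10.8, 21.8 and 43.7 CPM with CDs, against 8.27, 11.4 and 34.3 CPM untreated, and was highest where the macrophage markers were highest. Akr1b8, an aldo-keto reductase, likewise named after its values were seen, had the highest log2 fold change of the list, 1.35 ± 1.23, at 0.57, 2.06 and 5.45 CPM with CDs, against 0.26, 0.26 and 2.64 CPM untreated. It was thus low in every library and highest in both libraries numbered 3.

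**Figure D4:**
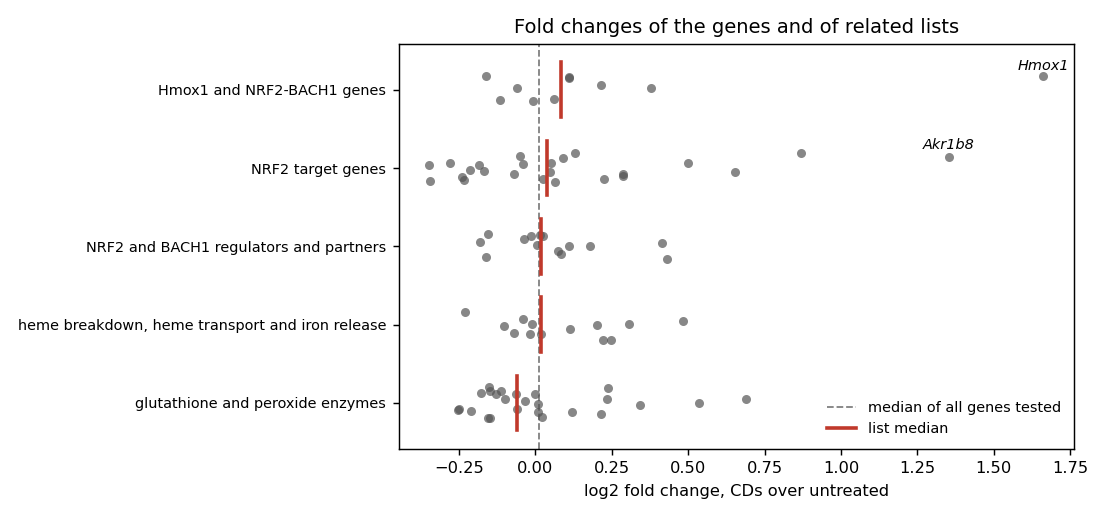
Each point is the edgeR log2 fold change (CDs over untreated, no block) of one tested gene, in rows for the 10 genes and for 4 related lists, with a bar at each list's median and a dashed line at the median of all genes tested. List medians lie between -0.06 and 0.09, and Hmox1, at 1.66, is farthest to the right.

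Partners and regulators of NRF2 and BACH1 also showed small differences. Of 14 tested, 9 lay above 0 and 5 below, at a median of 0.02, and 0 passed. Without the block, differences were below their standard errors for the small MAF genes Mafg (0.07 ± 0.11) and Mafk (0.01 ± 0.11). The same held for the erythroid family member Nfe2 (0.01 ± 0.21) and the ubiquitin ligase scaffold gene Cul3 (-0.01 ± 0.16). It also held for Sqstm1 (0.08 ± 0.36), whose protein p62 competes for KEAP1. With the block Mafg was above its standard error (0.07 ± 0.06, edgeR adjusted p = 0.454), and the others named were below theirs. Mafg was the only one of the 14 whose groups did not overlap, with CDs higher, against 2.37% of all genes tested. It measured 369, 336.2 and 346 CPM with CDs, against 329.5, 332 and 336.0 CPM untreated, so the groups nearly touched. Glutathione and peroxide enzymes had 10 of 25 tested genes above 0 and 15 below, a median of -0.06, and 0 passed. Of these, 11 were lower with CDs in 3 of 3 pairs, against 26.2% of all genes, and 5 were higher in 3 of 3, against 30.2%. The most abundant were Gpx1, glutathione peroxidase 1 (-0.11 ± 0.14), Prdx2, the red cell peroxiredoxin (-0.15 ± 0.26), Cat, catalase (0.01 ± 0.16), and Slc3a2, the heavy chain that pairs with SLC7A11 (0.02 ± 0.14). With the block Gpx1 gave -0.12 ± 0.07, Prdx2 -0.16 ± 0.07, Cat 0.01 ± 0.06 and Slc3a2 0.02 ± 0.06. Prdx6 (-0.25 ± 0.06) and the mitochondrial thioredoxin gene Txn2 (-0.26 ± 0.06) were named after their values were seen and are given with the block. They were the 2 below 0 with an adjusted p under 0.10 with the block (edgeR adjusted p = 0.0934 and 0.0916). Of all genes 8.3% were under 0.10 in either direction, made up of 5.17% higher with CDs and the rest lower.

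Likeness to Hmox1 was measured over all 6 libraries as the root mean square difference of mean-centred log2 CPM. It was taken among 11003 genes with a mean of at least 1 CPM, after genes with predicted or clone names were left out. A gene at the same level in every library would stand at 0.91 from Hmox1. The 5 nearest genes were Aldoc, a glycolytic aldolase (0.34), Nid2, a basement membrane nidogen (0.36), Pf4, a platelet chemokine that is also among the megakaryocyte markers (0.38), Pimreg, a mitotic regulator (0.39), and Hpgd, a prostaglandin dehydrogenase (0.398). Aldoc measured 87.0, 70.2 and 60.1 CPM with CDs, against 13.3, 12.1 and 18.7 CPM untreated. Nid2 and Hpgd were near the lower limit of the comparison. Nid2 measured 2.46, 2.21 and 2.80 CPM with CDs, against 0.72, 0.77 and 2.15 CPM untreated. Hpgd measured 1.32, 1.41 and 1.45 CPM with CDs, against 0.72, 0.46 and 0.88 CPM untreated. Hpgd thus reached the limit of a mean of 1 CPM only through its CDs libraries. None of the other 9 pathway genes was among these 5, which are few of the 11003 genes. The measure includes the difference between groups by which Hmox1 was chosen. Places in it are therefore a description and no test of whether Hmox1 moved with the pathway. Bach1 stood at 0.79 (place 868), Slc7a11 at 0.80 (964), Nfe2l2 at 0.85 (1852), Srxn1 at 0.86 (2075) and Keap1 at 0.91 (3290). Gclm (1.02), Gclc (1.02), Nqo1 (1.03) and Txnrd1 (1.05) were farther from Hmox1 than a level gene. Thus 5 of the 9 were nearer than a level gene, as were 3436 of the 11003 genes, so most genes lay farther.

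The 2 deposited tables were compared for these genes. Counts and FPKM differed between libraries by a root mean square of 0.0010 to 0.016 on the log2 scale for the 10 genes, against a median of 0.0057 over 9238 genes compared. From FPKM, on the log2(FPKM + 0.1) scale, Hmox1 had a log2 fold change of 1.71 ± 0.29 in limma. The labels do not name a stranded protocol, so reads of overlapping genes cannot be told apart by strand. In the GENCODE M21 annotation (GRCm38) no other gene overlaps Hmox1, Bach1, Nqo1, Gclc or Srxn1. Genes overlap Nfe2l2 (1), Keap1 (1, antisense), Gclm (2), Txnrd1 (3) and Slc7a11 (5), and Slc7a11 was the only one of the 10 whose counts were not whole numbers.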

How the data were processed

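RNA was sequenced in 6 libraries (3 CDs, 3 untreated) as single reads of 50 bases, per the labels' protocols. The authors deposited expected counts per gene, which were rounded before testing (30.1% were not whole), and a second table whose values behave as FPKM (no header states it). Per the submitters' processing notes the tools were RSEM 1.2.12, HISAT2 2.0.4, DESeq2 1.4.5 and Bowtie2 2.2.5, their roles not given, on build GRCm38.p6. Genes kept by filterByExpr (12283, with 99.94% of the counts) were TMM-scaled. The test was edgeR 4.0.16 (robust quasi-likelihood, treatment only, Benjamini-Hochberg over all genes) in R 4.3.3. limma 3.58.1 and DESeq2 1.42.0 served as alternatives. Pair ratios use a prior count of 1. Calls on simulated counts were checked first, but the share recovered is not given here. The coefficient of variation common to all genes was 0.485 without the block and 0.112 with it. A count of 0 genes called without the block is therefore not evidence that no gene differed.

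The members and lists were chosen with earlier results of these data known. Within the lists the text names the 4 most abundant genes and some preset ones, and the 5 genes nearest to Hmox1. Same-numbered libraries deviated together (correlations of 0.91, 0.345 and 0.938, limit 0.1), so numbers were taken as pairs. Within groups libraries differed by more than sampling noise (smallest chi-square per degree of freedom 11.5).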

Additional observations from a re-analysis of the deposited data

How the results depend on the processing

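Over 19 alternatives the log2 fold change of Hmox1 stayed above 0, from 1.43 to 2.03, and ran from 1.48 to 2.02 when 1 library was left out. It was 1.64 with DESeq2, 1.70 with DESeq2 and the replicate block and 1.57 with the macrophage marker covariate, where 1, 2 and 1 of the 10 genes were under the threshold. Each of these counts includes Hmox1, which was chosen by its p in these libraries, so its part in them is no test. Over all genes 14, 1210 and 58 then passed, and 5 with edgeR and 6 with limma-voom and the block, against 0 in the main edgeR test, where 127 genes had an unadjusted p under 0.05. Limma-voom without the block called 0 genes, with 128 at an unadjusted p under 0.05. Bach1 passed in 1 alternative, DESeq2 with the block (0.34). Gclc stayed below 0 and Srxn1 and Slc7a11 above 0 in all 19 alternatives, while Nfe2l2, Bach1, Keap1, Nqo1, Gclm and Txnrd1 took the opposite sign in at least 1. The median of glutathione and peroxide enzymes was 0.0039 with the covariate and ran from -0.14 to 0.02 with 1 library left out. That of NRF2 target genes was -0.0028 without both libraries numbered 2 and ran from -0.02 to 0.08 with 1 left out, and that of heme genes ran from -0.10 to 0.09. The cause was not tested. All 5 genes nearest to Hmox1 were shared under RLE scaling. The MAF recognition form matched 1 gene, the core 4.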
